A study of Mus musculus with 5 samples.

Results

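Extreme-coverage CpGs are the cytosines at which bisulfite reads piled up far beyond the rest of the library. The 5 deposited methylation tables were joined by chromosome, position and strand, and 280635 autosomal CpG cytosines had at least 10 reads in all 5. A CpG was taken when it was among the 0.1% of positions with the highest coverage in at least 1 table, a cut called the percentile below, which gave 1756 CpGs, or 0.626% of the shared positions. The members were chosen by their coverage, so their coverage and their share of reads are descriptions and were not tested, whereas the methylation levels played no part in the choice. The libraries were extended reduced representation bisulfite sequencing of LSK cells, the lineage-negative, Sca1-positive and Kit-positive fraction of mouse bone marrow that contains stem and early progenitor cells. All animals had a mixed 129Ola x C57Bl/6J strain background. The groups were Idh1-R132H Knock-in, with 3 libraries, and Wild-type, with 2. The labels do not state the age of the mice, how the mutant allele was driven, or whether each library came from its own animal. Genotype was taken from the labels and could not be checked from CpG tables. Replicate numbers below only name libraries, and the spread between libraries may be technical.

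In this assay MspI cuts DNA at CCGG, so that fragments come mainly from CpG-rich DNA, and bisulfite turns unmethylated cytosine into a base read as T while methylated cytosine is read as C. The level of a CpG is the deposited percent of reads with C. Ribosomal and satellite DNA, both repeated, are the background to what follows. Ribosomal DNA encodes the 18S, 5.8S and 28S RNAs of the ribosome in long tandem arrays, of which some copies are active with little methylation and others are silenced and methylated. Satellite DNA forms the tandem arrays around centromeres and is heavily methylated in most somatic cells. Genome assemblies contain few of the copies of either kind. Promoter CpG islands, by contrast, are mostly single-copy and unmethylated. Idh1 encodes a cytosolic isocitrate dehydrogenase, and the product of the mutant enzyme can inhibit the TET enzymes that oxidise methylated cytosine.

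No mm9 genome was used here, so the sequence under most clusters was not read. RefSeq promoter windows of build GRCm38.p6, which reach from upstream of a gene start to 50 bases after it, were matched to members by the spacing of their CpGs alone. Of 32851 windows, 13800 were searched, and a match required 5 member CpGs, at least 10 listed CpGs and every listed CpG of the window to coincide with a CpG of the promoter. The search gave 6 windows, at Kmt2a, Rnf214, Atp9a, Gm46840 and the overlapping pair Tmem267 and 3110070M22Rik. The 3 below are shown because they show promoter windows that the coverage rule collected: a pair that passed it in a single library and were unmethylated, and 1 of intermediate level whose members passed in 2 libraries on average. Each is 300 bases on the gene's strand, 5′ to 3′, with the CpGs that are members in capitals.
Kmt2a: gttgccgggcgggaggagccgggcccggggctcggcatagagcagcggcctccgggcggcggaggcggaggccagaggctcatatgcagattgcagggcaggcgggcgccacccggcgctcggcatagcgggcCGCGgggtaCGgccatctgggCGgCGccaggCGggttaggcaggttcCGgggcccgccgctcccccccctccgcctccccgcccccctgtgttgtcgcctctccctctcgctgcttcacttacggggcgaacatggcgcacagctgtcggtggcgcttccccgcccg
Atp9a: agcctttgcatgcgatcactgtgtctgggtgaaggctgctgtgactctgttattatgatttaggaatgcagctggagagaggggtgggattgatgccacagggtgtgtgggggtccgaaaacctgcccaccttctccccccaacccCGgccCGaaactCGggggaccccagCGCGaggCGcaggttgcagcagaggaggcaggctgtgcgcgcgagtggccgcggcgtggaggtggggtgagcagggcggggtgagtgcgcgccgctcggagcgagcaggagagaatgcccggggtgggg
Tmem267: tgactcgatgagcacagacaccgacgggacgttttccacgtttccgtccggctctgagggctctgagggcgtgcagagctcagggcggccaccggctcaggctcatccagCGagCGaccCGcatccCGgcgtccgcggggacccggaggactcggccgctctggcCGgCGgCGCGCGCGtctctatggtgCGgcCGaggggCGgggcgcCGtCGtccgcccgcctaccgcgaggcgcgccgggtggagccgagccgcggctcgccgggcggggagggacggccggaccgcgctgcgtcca

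Kmt2a encodes a histone H3 lysine 4 methyltransferase needed by blood stem cells. Its 7 members lay at chr9:44689441-44689488 in mm9, and all 31 listed CpGs of the window coincided with promoter CpGs. Their mean level was 0.106, 0 and 0.0814% for knock-in replicates 1 to 3 and 0% in both wild-type libraries. Median coverage was 135, 26 and 356 reads among knock-in libraries and 30 and 66 among wild-type libraries, so the percentile was passed in knock-in replicate 3 only. Rnf214, a RING finger gene, matched with 5 members at 0% in every library, again above the percentile in knock-in replicate 3 alone. The predicted gene Gm46840 also matched with 5 members that passed in that library alone, at a mean level of 4.02%. Atp9a encodes a P-type ATPase thought to flip phospholipids. Its 6 members at chr2:168567708-168567740 had a mean level of 0.326% and passed in knock-in replicate 1 only, with median coverage of 298.5, 16 and 198 reads among knock-in and 14 and 60.5 among wild-type libraries. The 15 members in the Tmem267 window, at chr13:120277141-120277242, stood apart from these. Their mean level was 69.5, 62.1 and 59.7% among knock-in libraries and 45.1 and 63.5% among wild-type libraries. The wild-type libraries lay on either side of 2 of the 3 knock-in libraries, so the groups overlapped.

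The percentile did not follow the order of depth. The tables listed between 447270 and 2028186 positions and between 8863867 and 128609669 reads, lowest in wild-type replicate 1 and highest in knock-in replicate 3. The percentile lay at 270, 164 and 332 reads for knock-in replicates 1 to 3 and at 185 and 143 reads for wild-type replicates 1 and 2, which was 5.30 to 11.5 times the median coverage of the table. Shared positions nearest to it had 271 and 270 reads in knock-in replicate 1, 165 and 164 in replicate 2 and 333 and 332 in replicate 3. In wild-type replicates 1 and 2 they had 185 and 184, and 144 and 143 reads. Knock-in replicate 3, the deepest library, contributed most: 1631 members were above its percentile, and 596 of them were above in no other library. The corresponding numbers were 954 and 107 in knock-in replicate 1, 676 and 0 for replicate 2 of that group, 434 and 0 for the first wild-type library, and 968 and 9 for the second.

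The members took a like share of every library. They held 6.28, 5.85 and 6.00% of the listed reads among knock-in libraries and 6.93 and 6.19% among wild-type libraries, a mean of 6.25% ± 0.417 (SD, n = 5). The wild-type libraries lay on either side of 6.28%, the highest knock-in value, and no order by genotype was seen. Most of these reads came from a pair of clusters. A stretch of chromosome 17 held 55.3% of the members' reads on average and a stretch of chromosome 2 held 22.95%, and the 1134 CpGs outside both held 1.36% of all listed reads.

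**Figure D1:**
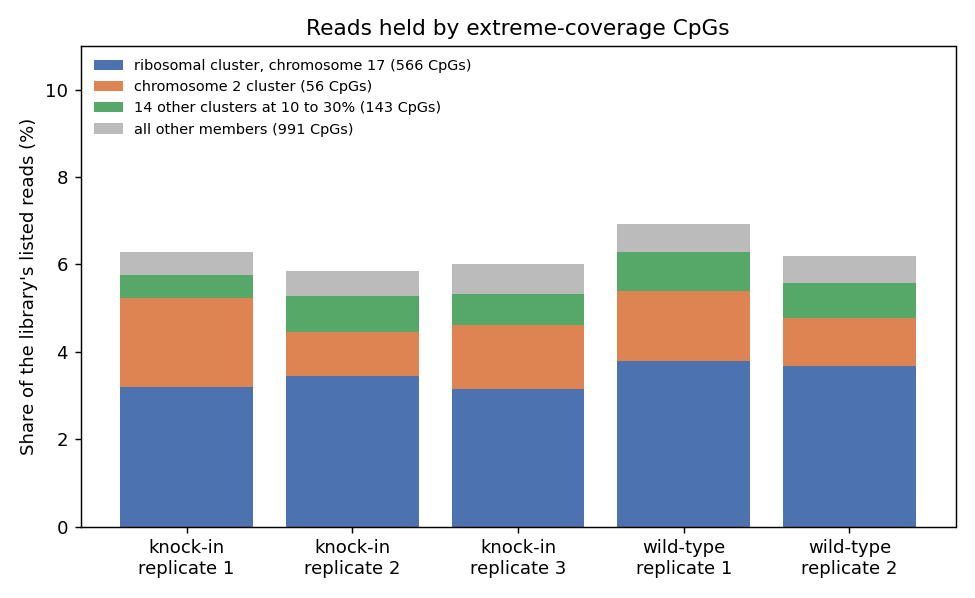
Share of each library's listed reads, in percent, held by extreme-coverage CpGs, stacked by the ribosomal cluster, the chromosome 2 cluster, 14 other clusters at 10 to 30% and all other members. The totals run from 5.85 to 6.93%, and the ribosomal cluster is the largest block in all 5 libraries.

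Members less than 10 kb apart were joined, which gave 286 clusters. Of these, 69 were single CpGs and 184 of the 217 larger ones lay within 50 bases on 1 strand, the extent of a single read or fragment end, so members of such a cluster share their reads. The 21 clusters of at least 10 CpGs held 934 members. Chromosome 17 had 615 members, 92.03% of them in 1 cluster, followed by chromosome 2 with 152, chromosome 11 with 124 and chromosome 9 with 105. Chromosome 19 had the fewest, 20. The first 4 Mb of the chromosomes, which in mouse assemblies adjoin the centromere, held 102 members on 7 chromosomes, 5.81% of the members against 0.750% of all shared positions. Those 102 had a mean level of 67.9%, and the 2002 other shared CpGs of the same stretches had 21.1%. Of the 102, 45 lay on chromosome 11 and 35 on chromosome 9. A single chromosome 11 cluster of 281 bases, at a mean level of 85.4%, supplied 30 of them. The share and the mean level of the 102 thus rest on few loci.

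Members also differed from other CpGs in level, a measure the rule did not use. A mean level under 20% was found at 943 members (53.7%) against 76.7% of shared positions, a level of 20 to 80% at 302 (17.2%) against 4.74%, and a level of 80% or more at 511 (29.1%) against 18.6%. These shares count linked CpGs singly: the ribosomal cluster of chromosome 17 supplied 429 of the 943 and 136 of the 302. Among the 1134 members outside it and the chromosome 2 cluster, the shares were 45.2, 13.7 and 41.1%. The label of repeated DNA was then read against the number of libraries that passed the percentile. Only 422 members were above it in all 5 libraries, and these held 5.21% of listed reads. The 712 members above it in a single library held 0.200%. In the group above in all 5, coverage was 40.6 to 81.8 times the library's median over shared positions. Of the 712, 427 had a mean level under 20%, and 386 of those lay outside the ribosomal cluster, 294 of them passing in knock-in replicate 3 and 92 in knock-in replicate 1. The 294 had 2.57 times the shared median coverage in knock-in replicate 3 and 1.50 to 1.84 times in the other libraries. The 92 had 4.92 times in knock-in replicate 1 and 0.72 to 1.20 times elsewhere. Their coverage in the other libraries was thus near that of ordinary positions, and the Kmt2a and Atp9a promoters belong to these sets. Since the set was limited to CpGs above in a single library, low coverage elsewhere is in part fixed by that choice. Whether these CpGs lie in repeated DNA was not determined, and they are called by the rule alone.

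**Figure D2:**
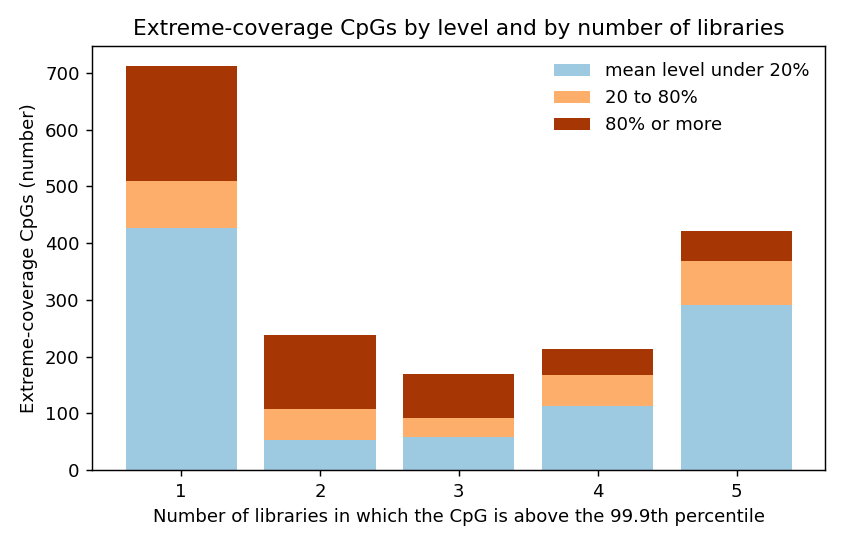
Number of extreme-coverage CpGs by the number of libraries in which they passed the percentile, stacked by mean level class. The 712 CpGs above in 1 library are mostly under 20%, the 239 above in 2 are mostly at 80% or more, and 298 of the 422 above in all 5 belong to the ribosomal cluster.

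The largest cluster lay at chr17:39979959-39985744, a stretch of 5786 bases. It held 566 members, 277 on the forward and 289 on the reverse strand, and 719 of all shared positions. The mm9 assembly is known to hold part of a 45S ribosomal DNA copy there, and the RefSeq gene table places the 18S-related locus Rn18s-rs5 on chromosome 17. That name rests on this background, since no sequence of the stretch was read. CpGs were dense, with 541 listed in any library or 9.35 per 100 bases. The cluster held 3.20, 3.44 and 3.14% of listed reads among knock-in libraries and 3.80 and 3.68% among wild-type libraries. Median coverage of its members was 1539, 548 and 4362.5 reads among knock-in and 236.5 and 1963 among wild-type libraries. That was 13.1 times the shared median in wild-type replicate 1 and 51.7 times in wild-type replicate 2, with the knock-in libraries between them.

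Ribosomal CpGs were partly methylated nearly throughout. The median member had a level of 15.6%, and the members from the 10th to the 90th percentile lay between 9.58 and 26.3%. The class under 20% held 429 members, that of 20 to 80% held 136 and only 1 reached 80%. Mean levels were 14.2, 17.1 and 18.8% for knock-in replicates 1 to 3 and 12.7 and 21.9% for wild-type replicates 1 and 2. The wild-type libraries were the lowest and the highest of the 5, so the groups overlapped. The means were 16.7% ± 2.34 (SD, n = 3) and 17.3% ± 6.49 (SD, n = 2), a knock-in minus wild-type difference of -0.608 percentage points, while the wild-type libraries were 9.18 points apart. Leaving out wild-type replicate 1 moved the difference to -5.20 points, leaving out wild-type replicate 2 to 3.98 and leaving out knock-in replicate 1 to 0.654, so no direction can be given.

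The same order ran along most of the stretch. In 12 bins of 500 bases the mean level over libraries lay between 13.7 and 20.5%, wild-type replicate 2 was the highest library in 10 bins and wild-type replicate 1 the lowest in 10. Wild-type replicate 2 was above wild-type replicate 1 at 514 of 566 members, and at 498 (88.0%) the wild-type libraries were further apart than the group means. The 153 shared CpGs of the stretch that were not members had levels of 16.2, 17.6 and 18.6% among knock-in and 16.4 and 20.3% among wild-type libraries. Median ribosomal coverage over the shared median was also lowest in wild-type replicate 1 and highest in wild-type replicate 2. The knock-in libraries did not follow the order of level in it, at 25.65, 21.9 and 31.8 times for replicates 1 to 3. By share of listed reads wild-type replicate 1 was instead the highest library, at 3.80%, with wild-type replicate 2 at 3.68%. Wild-type replicate 1 was also the shallowest library, and the part of coverage in the level was not tested. The deepest ribosomal CpG, at 39985393 on the reverse strand, had 13016, 4591 and 26312 reads among knock-in and 2536 and 6612 among wild-type libraries. Its levels were 9.25, 11.4 and 13.5% against 6.39 and 16.0%, again with the wild-type libraries outermost. Among the deepest members at intermediate level, 39985417 on the reverse strand, 24 bases further on, stood at 29.2, 30.5 and 30.2% against 25.8 and 31.65%. Neighbouring CpGs covered by nearly the same reads thus differed in level by more than the libraries did at either.

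**Figure D3:**
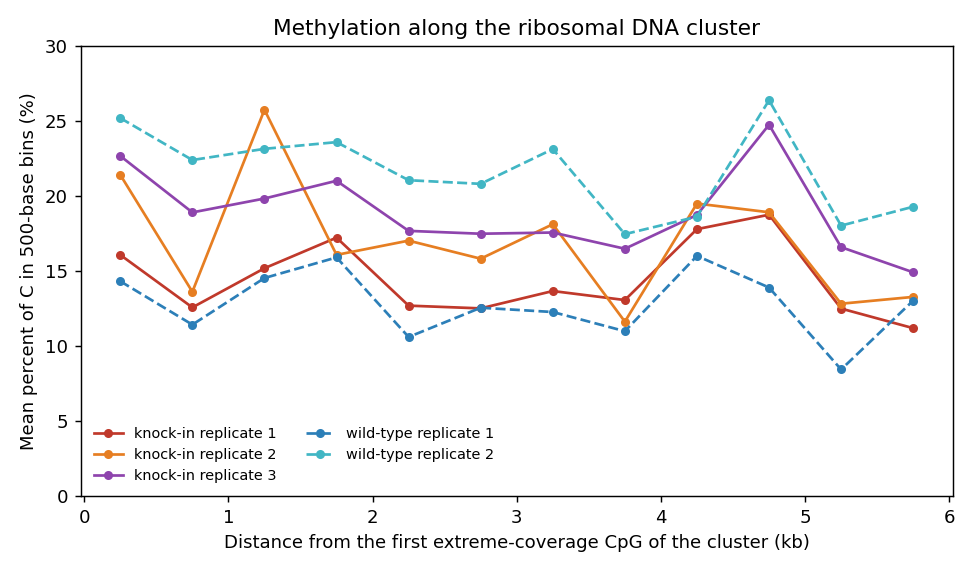
Mean percent of C in 500-base bins along the chromosome 17 ribosomal cluster, with distance from its first member in kb, 1 line per library (solid for knock-in, dashed for wild-type). Wild-type replicate 2 is the highest line in 10 of 12 bins and wild-type replicate 1 the lowest in 10.

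The second cluster by reads lay at chr2:98502422-98507412 and held 56 members, 28 on each strand, 27 of them above the percentile in all 5 libraries. It held 2.02, 1.01 and 1.47% of listed reads among knock-in libraries and 1.60 and 1.11% among wild-type libraries. In contrast to the ribosomal cluster it was highly methylated, with 44 members at 80% or more, 11 at 20 to 80% and 1 below, 98502984 on the forward strand at 0.502%. Mean levels were 84.0, 83.1 and 83.0% among knock-in and 83.1 and 82.8% among wild-type libraries. The means of 83.4% ± 0.546 (SD, n = 3) and 82.9% ± 0.161 (SD, n = 2) differed by 0.413 points, and the groups overlapped. With 1 library left out in turn the difference lay between 0.101 and 0.612 points.

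Other bases and the spacing of CpGs, which the coverage rule had not used, were described next. Of the 56 members, 28 (50%) had more than 1% of reads with neither C nor T, compared with 0.541% of shared positions, 0.353% of ribosomal members and 2.29% of the members outside both clusters. Such reads were not particular to this cluster, where their mean share over members was 0.944%. It was 1.44% at chr9:3000400-3005954, 0.832% at chr9:3018379-3036097 and 0.848% at chr9:35112845-35113079. Distances between the 57 listed CpGs of the chromosome 2 cluster were counted from 150 to 400 bases. The most frequent were 251 bases, with 7 pairs, and 234 bases, with 6, where the median distance had 1. The unit of mouse major satellite DNA is known to be 234 bases long. A pair of clusters near the start of chromosome 9 had 234 bases as their most frequent distance, chr9:3000400-3005954 with 6 pairs among 34 CpGs and chr9:3018379-3036097 with 9 pairs among 89, where the median distance had 0. In the ribosomal cluster 234 bases had 57 pairs against a median of 51, and the most frequent, 304 bases, had 70. These distances are descriptions of listed positions, and no satellite sequence was read. They were counted only in the chromosome 2 cluster, this pair of chromosome 9 clusters and the ribosomal cluster, so other clusters cannot be compared.

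One cytosine of the chromosome 2 cluster outweighed all other positions. At 98506661 on the reverse strand coverage was 683485, 102397 and 1051232 reads for knock-in replicates 1 to 3 and 73757 and 282985 for wild-type replicates 1 and 2. It held 1.31, 0.602 and 0.817% of all listed reads among knock-in and 0.832 and 0.794% among wild-type libraries, and on average 60.8% of the reads of its cluster. The neighbour 10 bases away on the same strand, 98506671, had 660, 57 and 1231 reads among knock-in and 99 and 216 among wild-type libraries, at a mean level of 69.2%. The next 4 CpGs by share were 98507306 and 98503013 on the forward strand, 98502952 on the reverse and 98507264 on the forward strand, all of the same cluster, at mean levels of 90.8, 90.4, 95.6 and 63.1%. The level at 98506661 was 97.2, 96.7 and 96.5% among knock-in and 95.5 and 96.2% among wild-type libraries. All 3 knock-in values lay above both wild-type values, with a gap of 0.26 points between the nearest libraries and a difference of means of 0.933 points. In edgeR's quasi-likelihood test on methylated and unmethylated reads, fitted over all 280635 shared positions, it had an adjusted p of 8.746e-40. The exact 2-sided permutation test over the 10 ways to choose 3 of 5 libraries gave p = 0.1, the smallest it can give, and limma on arcsine square root levels did not call it. With 20 reads required in every library, which left 80362 positions in the fit, edgeR did not call it either.

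Coverage of the strands was uneven in this cluster, most of all in knock-in replicate 1. Of its CpGs, 10 had both cytosines in the set. Their median fold between strands was 275 in knock-in replicate 1, 8.51 and 12.6 in knock-in replicates 2 and 3, and 7.93 and 13.5 among wild-type libraries. At the CpG of 98506748, the forward and reverse cytosines had 4961 and 12 reads in knock-in replicate 1, 977 and 123 in replicate 2 and 12695 and 816 in replicate 3. They had 938 and 122 reads in wild-type replicate 1 and 1307 and 88 in wild-type replicate 2. At that of 98502842, knock-in replicate 1 had 35 and 1172 reads while replicate 3 had 1885 and 1877. From 98506748 onward the reverse cytosines of these CpGs had between 12 and 125 reads in knock-in replicate 1, such as 13 at 98506780, where its level was 23.1% against 82.1 to 92.55% in the other libraries. The imbalance of knock-in replicate 1 was not limited to this cluster. Among 21110 CpGs without a member, 10.2% had strands more than 4-fold apart in coverage in that library, against 4.83 and 1.12% in its fellow knock-in replicates 2 and 3 and 0.730 and 0.469% for the wild-type libraries.

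**Figure D4:**
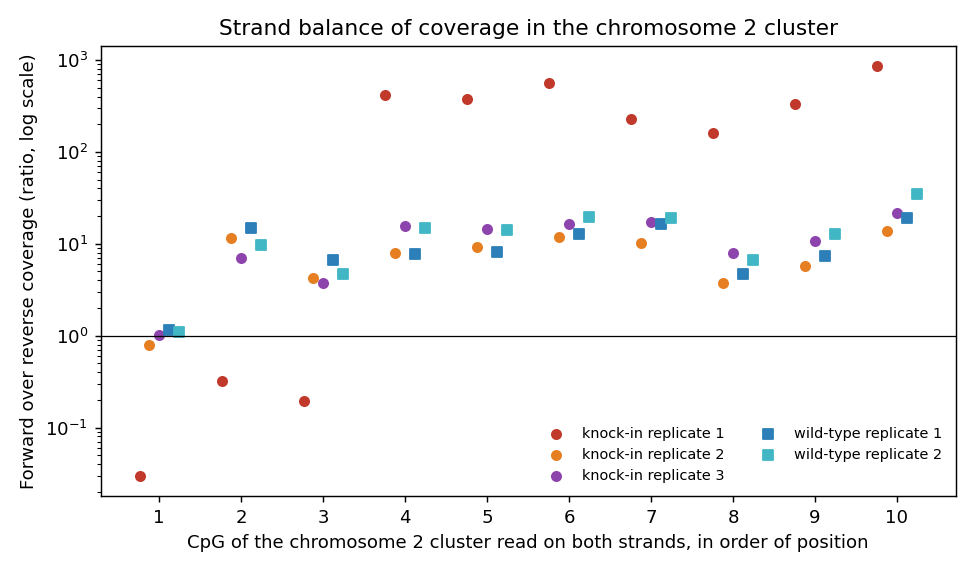
Forward over reverse coverage, on a log scale, at the 10 CpGs of the chromosome 2 cluster with both cytosines among the members, 1 point per library (circles for knock-in, squares for wild-type). Knock-in replicate 1 reaches ratios above 150 at 98506748 and its neighbours to the right, and falls below 1 at the first 3 CpGs.

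CpGs are usually methylated alike on both strands. Over 215 CpGs with both cytosines among the members, the median difference between strands was 3.48 points, and 3.27 points over the 153 in the ribosomal cluster, against 0 points over the 21110 CpGs without members. More than 20 points separated the strands at 6 CpGs, 2.79% of them, against 0.677% of the CpGs without members. Positions at 0 or 100% in all 5 libraries made up 54.3% of shared positions and 11.2% of members, which lowers the background values. The comparison was not matched for level, so it does not show a strand difference particular to members. The widest gap was at chr7:89920470, where the forward cytosine had a mean level of 96.3% and the reverse 1.62%. Each library showed it, with forward levels of 89.3 to 100% and reverse levels of 0 to 3.93%. At chr2:98506419 the strands stood at 96.7 and 22.5%, and at 39981449 in the ribosomal cluster at 15.6 and 68.3%, the latter on as few as 10 reads in knock-in replicate 2. At chr16:57391749 they stood at 64.4 and 23.4%.

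Outside the ribosomal stretch, 14 clusters of at least 3 members had mean levels of 10 to 30%, and these 143 members held 0.749% of listed reads. The largest, chr11:108873013-108873326 with 33 members, had levels of 12.9, 15.4 and 16.7% among knock-in and 12.03 and 18.6% among wild-type libraries. A cluster of 19 members within 52 bases at chr16:11144143-11144194 had 10.6, 11.5 and 15.1% against 12.3 and 15.2%. The cluster chr5:147072588-147072871 with 12 members, had 13.4, 14.2 and 24.2% against 12.8 and 22.5%, and the 5 members of chr13:44965001-44965023 had 20.4, 19.2 and 29.35% against 19.0 and 27.6%. The groups overlapped in these 4, with knock-in replicate 3 and wild-type replicate 2 the highest libraries in each. Of the 14, only chr11:105928092-105928131, with 10 members, had no overlap, at 17.1, 20.0 and 21.0% among knock-in and 21.1 and 23.4% among wild-type libraries. Wild-type replicate 2 exceeded wild-type replicate 1 in 13 of the 14 clusters, by a median of 6.69 points, the order seen in the ribosomal cluster. Among the 96 clusters of at least 3 members above 30% it did so in 34. What DNA these clusters hold was not determined.

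Highly methylated clusters were more numerous. There were 62 clusters of at least 3 members at 80% or more, with 366 members, and the median cluster held 0.00215% of listed reads, against 0.0256% for the 14 at 10 to 30%. The chromosome 2 cluster, with 1.44%, was the exception and held more than those 14 together. The largest after chromosome 2, chr11:3093351-3093631 with 30 members, had levels of 88.8, 85.7 and 80.6% among knock-in and 88.4 and 83.4% among wild-type libraries. Just under that level, 29 members at chr12:20236119-20240174 had 77.5, 81.3 and 75.6% against 80.05 and 85.3%. At chr7:89919786-89920515, 23 members had 89.3, 87.4 and 86.0% against 89.8 and 86.5%. The 6 members of chr9:35112845-35113079, which held 0.0352% of listed reads, had 83.6, 83.9 and 84.7% against 82.1 and 84.9%. The groups overlapped in all of these. In 42 of the 62 clusters wild-type replicate 1 lay above wild-type replicate 2, and in 42 knock-in replicate 1 lay above knock-in replicate 3, the reverse of the order at 10 to 30%. The remaining clusters of at least 3 members were 34 at 30 to 80%, with 200 members, and 54 under 10%, with 308 members. Clusters of fewer than 3 members numbered 121 and held 173.

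**Figure D5:**
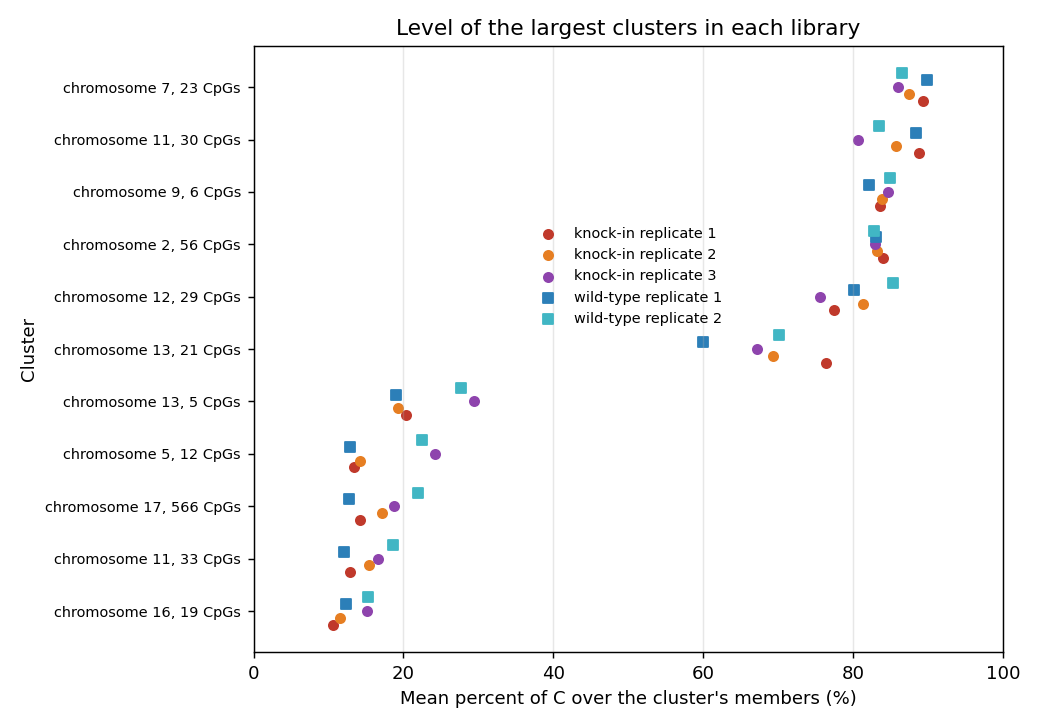
Mean percent of C over the members of each of the clusters with the most members or the largest share of reads, 1 point per library (circles for knock-in, squares for wild-type). Wild-type and knock-in points overlap in every cluster drawn, and the clusters separate into a group near 10 to 30% and a group at high level.

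The comparison the design implies is whether these CpGs differ in methylation between knock-in and wild-type LSK cells. Over all members the mean level was 37.5, 38.3 and 38.7% for knock-in replicates 1 to 3 and 36.9 and 40.0% for wild-type replicates 1 and 2. The means were 38.2% ± 0.600 (SD, n = 3) and 38.4% ± 2.22 (SD, n = 2), a difference of -0.238 points with overlapping groups. For these same members the sign turned without wild-type replicate 2, to 1.33 points, and without knock-in replicate 1, to 0.0893. It also turned with clusters weighted equally, to 0.329, and with the highest 0.5% of coverage, to 0.208, so no direction can be given. Outside both main clusters the 1134 members had 46.9, 46.7 and 46.5% against 46.6 and 46.9%, a difference of -0.0853 points. At members of 20 to 80% the means were 42.4% ± 1.69 (SD, n = 3) and 42.2% ± 3.36 (SD, n = 2), a difference of 0.175 points. The other shared CpGs of 20 to 80%, 13003 in number, had 57.0, 56.8 and 53.4% among knock-in and 48.9 and 51.45% among wild-type libraries, a difference of 5.55 points with no overlap. Of the 302 members in that class, 136 were ribosomal. The difference of the other shared CpGs was 0.220 points under 20%, 1.52 at 80% or more and 0.710 over all of them. Members had -0.449 points under 20% and -0.0921 at 80% or more. Whether members and other CpGs differ in their response to genotype was not tested.

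Single positions were compared over the whole table. edgeR called 1 member higher in knock-in, 98506661 on chromosome 2, and 0 lower at an adjusted p of 0.05, where the share called over all shared positions was 0.000356% and 0%. At an unadjusted p under 0.05 it gave 6 members higher (0.342%) and 2 lower (0.114%), against 0.201% and 0.0652% of shared positions. limma called none. Fisher's exact test, run on reads pooled by genotype and so blind to differences between libraries, called 68 members higher (3.87%, against 2.08% of shared positions) and 316 lower (17.995%, against 1.03%). Levels of the groups did not overlap, knock-in higher, at 81 members (4.61%), against 2.45% of shared positions, and knock-in lower at 79 (4.50%), against 0.990%. The background is lowered by positions at 0 or 100% in all 5 libraries, which made up 54.3% of shared positions and 11.2% of members. The shares of non-overlap here and below were not matched for this, so they do not show an excess among members. By cluster, the ribosomal members gave 9 higher (1.59%) and 30 lower (5.30%), the chromosome 2 members 12 (21.4%) and 4 (7.14%), and the rest 60 (5.29%) and 45 (3.97%). With group means required to be at least 5 points apart, 47 members were higher (2.68%, against 2.37% of shared positions) and 65 lower (3.70%, against 0.935%). The prevailing direction turned with the wild-type library left out. Against a single wild-type value non-overlap is easier to meet, so the counts rise by design. Without wild-type replicate 2, 546 members (31.1%, against 6.20% of shared positions) were higher in knock-in without overlap, and 13.7% (against 3.65%) were lower. Without wild-type replicate 1, 552 (31.4%, against 6.13%) were lower, and 10.5% (against 7.21%) were higher. Without wild-type replicate 2, edgeR called 3 members higher. The added members were ribosomal: 39982262 on the forward strand with levels of 6.41, 2.02 and 7.27% against 0% in wild-type replicate 1 and 9.23% in the library left out, and 39985434 on the reverse strand with 18.4, 25.6 and 27.4% against 4.92 and 27.0%.

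The members with the widest gap between the groups are given as examples, and edgeR's adjusted p was 1 at each. At chr1:90149766, forward strand, levels were 71.5, 82.6 and 58.4% among knock-in and 30.0 and 44.9% among wild-type libraries, on 30 to 344 reads, a difference of 33.4 points. At chr2:151294099, forward strand, a position above the percentile in all 5 libraries, they were 69.3, 78.4 and 73.9% against 59.3 and 55.2%, a difference of 16.7 points on 189 to 1577 reads. The others higher in knock-in were chr17:54189506 and chr8:67959240, both on the forward strand, with differences of 17.7 and 14.5 points, and chr2:98502714 on the reverse strand of the chromosome 2 cluster, with 10.6. The widest gaps in the opposite direction included 3 CpGs of the chromosome 12 cluster. They lay at 20239538 on the forward strand, with 69.6, 76.6 and 70.5% against 100 and 88.8%, and at 20239971 and 20237680 on the reverse strand, with differences of -15.55 and -15.3 points. The ribosomal CpG 39981780 on the reverse strand had 27.4, 13.3 and 29.1% against 46.4 and 39.6%, a difference of -19.7 points. At chr7:7230851, forward strand, levels were 37.0, 38.1 and 76.8% against 85.3 and 87.6%, on as few as 21 reads. All 12 members of its cluster, chr7:7230845-7230933, averaged 58.1, 44.0 and 77.6% among knock-in and 83.8 and 80.3% among wild-type libraries. The knock-in libraries were lower there but differed among themselves by more than the groups' nearest values. The exact 2-sided permutation p was 0.2 at chr7:7230851 and 0.1 at each of the other single positions of this paragraph. They were picked because their groups did not overlap, so a p at or near the smallest possible was largely set by that choice.

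Reads with neither C nor T were most frequent at 3 members, chr11:29971602 on the forward strand with a mean of 6.91%, the ribosomal CpG 39982542 on the forward strand with 6.37%, and chr9:3005954 on the reverse strand with 5.13%. At chr11:29971602 their share was 5.46, 5.88 and 9.50% among knock-in and 4.88 and 8.85% among wild-type libraries, so all 5 libraries carried such reads. Over the 1756 members, which share reads within clusters, Pearson's r of levels between pairs of libraries ran from 0.944 to 0.991, given as a description.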

How the data were processed

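The authors deposited 1 table per library; CASAVA 1.7, Bismark and build mm9 are named in the submitters' processing notes, with no Bismark version. Per the file headers, a line holds a CpG's position, strand, coverage and percent of C and T. Coverage holds whole read counts of at least 10 in the deposited tables, and the deposited percent columns sum to at least 90.06. Coverage multiplied by the percent of C or T gave methylated and unmethylated reads, which were whole numbers within rounding at 100% of positions. Duplicate removal is not mentioned in the labels, so read counts cannot be taken as independent molecules.

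The percentile was taken over all rows of each table. Members, lists and tests were chosen with earlier results of these data known. Named positions were the deepest members and clusters, members called by edgeR, the 5 widest gaps between groups in each direction, members with most other bases and those next to each percentile. Tests used edgeR 4.0.16 (quasi-likelihood, a term per library, 3 residual degrees of freedom, Benjamini-Hochberg), limma 3.58.1 as an alternative, and exact permutation over 10 divisions. The fits were first run on simulated data with large shifts at CpGs of low to intermediate level. That setting does not check calls of small differences at high level. R 4.3.3, Python 3.11.15, pandas 2.3.3 and scipy 1.17.1 were used.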

Additional observations from a re-analysis of the deposited data

How the results depend on the processing

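The number of extreme-coverage CpGs, 1756, became 13733 with the highest 0.5% of coverage and 232 with the highest 0.01%, 422 with all 5 libraries required and 413 with the percentile over shared positions, and lay between 1166 (without knock-in replicate 3) and 1981 with 1 library left out. Their share of reads, 6.25%, became 8.88%, 4.31% and 5.21% under the first 3 of these, 5.38% without the deepest position and 13.9% of shared reads, and 6.15 to 6.60% with 1 library left out. The mean difference of -0.238 points became 2.86 weighted by reads and 1.20 so weighted without the deepest position. With 1 library left out it was -1.48 to 1.35 where members were chosen again, and -1.81 to 1.33 for the same 1756 members. The 1 member called higher became 0 with at least 20 reads and with each of the 3 limma fits, 68 by Fisher's exact test on pooled reads (3.87% against 2.08% of shared positions), which ignores the spread between libraries, and 1 to 3 with 1 library left out. The 0 called lower became 316 by Fisher's test (17.995% against 1.03%) and was 0 with each library left out. Members without overlap, 81 higher and 79 lower, became 47 and 65 with means at least 5 points apart (2.68 and 3.70%, against 2.37 and 0.935% of shared positions). With 1 library left out they became 135 to 546 (7.69 to 31.1%, against 3.66 to 7.21%) and 146 to 552 (8.31 to 31.4%, against 1.65 to 6.13%). Fewer libraries make non-overlap easier to meet, so part of this rise is by design. No paired analysis was possible because the labels carry no replicate numbers.

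Depth limits the shallow libraries most: wild-type replicate 1 had a median of 58 reads over members, knock-in replicate 3 had 829. Members within a cluster share reads, and reads of different repeat copies cannot be told apart. With 3 and 2 libraries, permutation cannot give a p under 0.1.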

Other observations

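Some positions passed a library's percentile without entering the shared autosomal set. Knock-in replicate 1 had 229 autosomal positions above its percentile that were not listed with 10 reads in all 5 libraries, knock-in replicate 3 had 290 and wild-type replicate 2 had 76, whereas knock-in replicate 2 had 2 and wild-type replicate 1 had 0. Mitochondrial DNA gave 11, 8 and 15 positions above the percentile among knock-in and 8 and 11 among wild-type libraries. Chromosome X gave 12, 11 and 72 among knock-in and 6 and 69 among wild-type libraries.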
